A study of Mus musculus with 6 samples.

Results

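The 9 genes described here, Stab1, Stab2, Lyve1, Clec4g, Pecam1, Kdr, Fcgr2b, Oit3 and Dnase1l3, are markers of the endothelial cells that line the liver sinusoids. They were taken by name from the deposited gene table. Each name had 1 row or was represented by its row with the highest mean, and all 9 of the 14499 genes in the table were found. The samples were 6 libraries of total RNA from whole mouse liver, 3 of the wild type (WT_DDC) and 3 in which Arid1a was knocked out in hepatocytes only (Arid1a_KO_DDC). Both groups shared a mixed C57Bl/6; 129Sv background and an age of 10 weeks, and both had been injured for 2 weeks with DDC, a porphyrin-raising compound that brings a ductular reaction. Arid1a encodes a subunit of the BAF chromatin remodelling complex. The knockout is labelled as one of hepatocytes, so the endothelial cells are not the labelled target, and the Cre driver is not given in the sources used here.

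Liver sinusoidal endothelial cells form the fenestrated wall between blood and hepatocytes. They clear waste macromolecules from blood through scavenger receptors, lectins and Fc receptors, and they exchange signals with hepatocytes and stellate cells. In chronic injury they can lose fenestrae and scavenger receptors and gain features of ordinary capillaries. In whole-liver RNA, fewer cells of a type and less RNA per cell cannot be told apart.

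Values are FPKM, fragments scaled by gene length and by the mapped total, so levels can be compared between genes. Absolute depth is unknown. Steps between low values gave depths of 0.904 to 1.16 relative to WT_DDC replicate 1, and between 11280 and 11712 genes per library had at least 1 FPKM. The lowest of these counts and the lowest relative depth were both those of Arid1a_KO_DDC replicate 3. Arid1a itself was at 7.85, 5.48 and 5.98 FPKM in wild-type replicates 1, 2 and 3, and the knockout replicates 1, 2 and 3 had 6.61, 5.01 and 3.81 FPKM. These groups overlapped (log2 difference -0.29, SE 0.22, limma adjusted p = 0.678), and a whole-liver, whole-gene value does not check a deletion in hepatocytes. Replicate 1 of both genotypes stood apart from the rest. These libraries carry the numbers L0566 and L0567, against L0602 to L0605 for the others, and the Y-linked gene Ddx3y was at 0.0527 and 0.0227 FPKM in them against 9.27 to 11.3 FPKM elsewhere. Replicate 1 of each genotype, nearly without this transcript, cannot come from the same mouse as replicates 2 and 3. Each genotype thus holds more than 1 mouse, and these appear to differ in sex. Whether the 6 libraries stand for 6 mice is not given in the sources used here. Each p-value therefore reflects the spread between libraries, which may be technical in part.

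The markers fell into tiers of abundance. Stab1, Clec4g and Fcgr2b were the most abundant, with means over the 6 libraries of 20.2, 19.7 and 19.4 FPKM. Their order was not stable, since Stab1 exceeded Clec4g in 4 of 6 libraries and Clec4g exceeded Fcgr2b in 3 of 6. Fcgr2b exceeded Stab2 in 6 of 6 libraries. Stab2 and Dnase1l3 followed at 6.08 and 5.69 FPKM, with Stab2 the higher in 3 of 6, and Pecam1 stood at 4.30 FPKM, below Dnase1l3 in 4 of 6. The lowest tier held Oit3 at 2.81, Lyve1 at 2.15 and Kdr at 1.48 FPKM. Pecam1 exceeded Oit3 in 5 of 6 libraries, Oit3 exceeded Lyve1 in 6 of 6 and Lyve1 exceeded Kdr in 5 of 6.

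**Figure D1:**
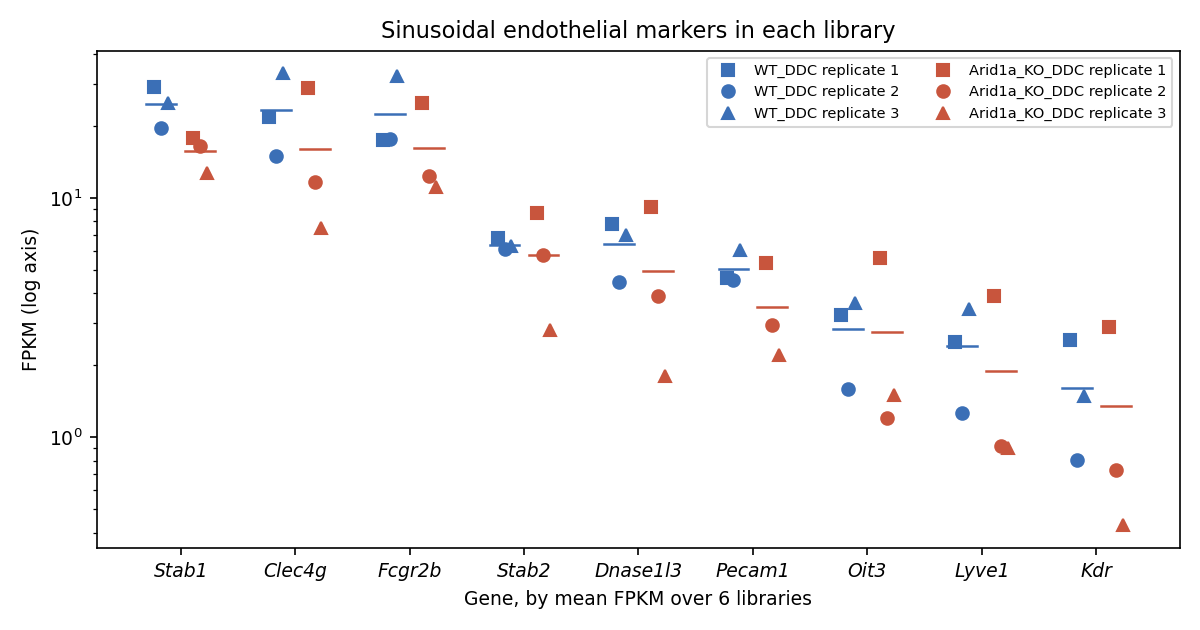
FPKM on a log axis of the 9 markers in each library, ordered by mean; squares are replicate 1, circles replicate 2 and triangles replicate 3, blue is WT_DDC and red Arid1a_KO_DDC, and short lines are group means of 3 libraries. Knockout replicates 2 and 3 are the lowest pair for all 9 genes, and only Stab1 has knockout replicate 1 below every wild-type library.

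Stab1 and the other 8 genes had unlike patterns across the libraries, described below. The stretch just upstream of the gene start is printed for Stab1 and for Clec4g, which had the highest mean of the other 8. RefSeq promoters on GRCm38.p6 were matched for 5 of the 9 genes. The Stab1 stretch is chr14:31168642-31168891 on the minus strand and the Clec4g stretch is chr8:3720652-3720901 on the minus strand, each 250 bases, and no GENCODE exon overlaps either. Capitals mark CAGGAAG, a form of the ETS family motif.
Stab1: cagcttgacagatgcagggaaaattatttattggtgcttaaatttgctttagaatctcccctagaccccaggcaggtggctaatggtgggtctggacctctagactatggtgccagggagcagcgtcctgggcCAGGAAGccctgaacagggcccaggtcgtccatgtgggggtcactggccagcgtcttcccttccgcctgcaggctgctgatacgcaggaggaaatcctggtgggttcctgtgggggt
Clec4g: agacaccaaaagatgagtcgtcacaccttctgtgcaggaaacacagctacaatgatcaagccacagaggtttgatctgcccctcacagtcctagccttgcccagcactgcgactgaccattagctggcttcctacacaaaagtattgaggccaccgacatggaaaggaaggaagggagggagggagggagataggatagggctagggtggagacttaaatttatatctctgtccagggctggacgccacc
The motif CAGGAAG, searched on both strands, began 117 bases before the Stab1 start and was in 1 of the 5 matched promoters; 10.8% of all 32851 promoter windows of this length hold it. The ETS form ACCGGAAG, in 1.72% of windows, and the GATA form AGATAA, in 9.99%, were in 0 of the 5. The forms do not overlap one another in the Stab1 stretch, which holds a single match. Other forms of these motifs were not searched, and a link of the motif to the patterns was not tested.

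None of the 9 markers differed between the genotypes in the test over all genes. Knockout minus wild type was below 0 for all 9, and their median was -0.48 on the log2(FPKM + 1) scale against 0.0034 over all 11839 genes tested. By limma, 0 of 9 passed an adjusted p of 0.05, where 0.49% of all genes passed in either direction and 0.355% were lower. At an unadjusted p under 0.05, 1 of 9 was lower by limma, Stab1, where 6.5% of all genes were. Without Arid1a_KO_DDC replicate 1 this count was 6 of 9, and it was 0 when WT_DDC replicate 1 was left out, when WT_DDC replicate 3 was, and when Arid1a_KO_DDC replicate 3 was. In the fit without Arid1a_KO_DDC replicate 1, 1992 of all 11839 genes were at an unadjusted limma p under 0.05, in either direction. The groups did not overlap for 1 of 9, again Stab1, where 9.56% of all genes were lower without overlap. All 9 passed the filter of at least 1 FPKM in 3 libraries, which Kdr met in exactly 3, WT_DDC replicates 1 and 3 and Arid1a_KO_DDC replicate 1. The median was -0.10 without Arid1a_KO_DDC replicate 3, -0.25 without WT_DDC replicate 3 and -0.76 without Arid1a_KO_DDC replicate 1.

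The stabilins are large scavenger receptors that take up modified lipoproteins, hyaluronan and other waste from blood. Stab1 (ENSMUSG00000042286, GRCm38 chromosome 14, 31139013 to 31168641), which macrophages also make, was at 29.1, 19.7 and 25.1 FPKM in wild-type replicates 1, 2 and 3, and the knockout replicates, in the same order, had 17.9, 16.6 and 12.8 FPKM. Every knockout library lay below every wild-type library. Group means were 24.7 ± 4.72 and 15.8 ± 2.67 FPKM (SD, n = 3 each; exact permutation p = 0.1, the smallest that 3 against 3 allows). The log2 difference was -0.61 (SE 0.20, 95% interval -1.08 to -0.15), with a limma adjusted p of 0.314. Nt5dc2, on the opposite strand at 8.27 FPKM on average, overlaps the annotated Stab1 gene, and use of strand in the counting is not given in the sources used here, so reads of the shared stretch cannot be told apart. Stab2 (ENSMUSG00000035459, chromosome 10, 86841198 to 87008025), the stabilin that serves as the main hyaluronan clearance receptor of these cells, was at 6.80, 6.12 and 6.29 FPKM in wild type and at 8.70, 5.79 and 2.80 FPKM in knockout. The wild-type libraries were close together, and the knockout libraries lay on both sides of them. Its log2 difference was -0.23 (SE 0.33, 95% interval -1.003 to 0.54, limma adjusted p = 0.835), and 0.13 without Arid1a_KO_DDC replicate 3.

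Lyve1, Fcgr2b and Clec4g encode further uptake and binding receptors. Lyve1 (ENSMUSG00000030787, chromosome 7, 110850607 to 110863239), a hyaluronan receptor shared with lymphatic endothelium, was at 2.50, 1.26 and 3.44 FPKM in wild type and at 3.89, 0.922 and 0.901 FPKM in knockout. Knockout replicate 1 was the highest of the 6 libraries and the other knockout libraries the lowest, so the groups overlapped (log2 difference -0.33, SE 0.43, 95% interval -1.34 to 0.69, limma adjusted p = 0.820). Fcgr2b (ENSMUSG00000026656, chromosome 1, 170958617 to 170976547), the inhibitory Fc gamma receptor through which these cells clear immune complexes, was at 17.5, 17.7 and 32.6 FPKM in wild type and at 25.1, 12.3 and 11.1 FPKM in knockout. Wild-type replicate 3 was the highest, knockout replicate 1 the next, and the groups overlapped (-0.49, SE 0.36, 95% interval -1.34 to 0.37, limma adjusted p = 0.673). Fcgr2b is also made by B cells and macrophages, and it is similar in sequence to Fcgr3, so how reads were divided between these 2 genes is uncertain. Fcgr3 was at 22.9, 22.2 and 36.5 FPKM in wild type and at 14.1, 15.8 and 11.0 FPKM in knockout, without overlap (-0.92, SE 0.23, limma adjusted p = 0.205). Clec4g (ENSMUSG00000074491, chromosome 8, 3707064 to 3720651), the C-type lectin LSECtin, was at 21.9, 15.0 and 33.3 FPKM in wild type and at 29.0, 11.7 and 7.52 FPKM in knockout. It had the most negative difference of the 9 and the widest interval (-0.65, SE 0.49, 95% interval -1.81 to 0.51, limma adjusted p = 0.678), with knockout replicate 1 above 2 of the 3 wild-type libraries.

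Pecam1 and Kdr are genes of endothelium in general. Pecam1 (ENSMUSG00000020717, chromosome 11, 106654217 to 106750628), the junctional adhesion molecule CD31, also on platelets and leukocytes, was at 4.62, 4.54 and 6.08 FPKM in wild type and at 5.38, 2.94 and 2.22 FPKM in knockout. Knockout replicate 1 lay within the wild-type range and the other knockout libraries below it (log2 difference -0.48, SE 0.27, 95% interval -1.12 to 0.16, limma adjusted p = 0.568). Kdr (ENSMUSG00000062960, chromosome 5, 75932827 to 75978458), the main signalling receptor for VEGF-A, was at 2.55, 0.806 and 1.49 FPKM in wild type and at 2.90, 0.731 and 0.429 FPKM in knockout. Replicate 1 of both genotypes was the highest of its group, and the highest library had 6.76 times the lowest, the widest range of the 9. The difference of Kdr was -0.24 (SE 0.42, 95% interval -1.25 to 0.77, limma adjusted p = 0.872). It turned to 0.0067 when WT_DDC replicate 1 was left out and to 0.047 when Arid1a_KO_DDC replicate 3 was.

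Oit3 and Dnase1l3 encode secreted products. Dnase1l3 (ENSMUSG00000025279, chromosome 14, 7964533 to 7994573), a nuclease that degrades DNA of circulating chromatin, was at 7.79, 4.45 and 7.001 FPKM in wild type and at 9.17, 3.90 and 1.81 FPKM in knockout. Its knockout libraries spanned more than the whole wild-type range (log2 difference -0.48, SE 0.46, 95% interval -1.57 to 0.60, limma adjusted p = 0.742). Oit3 (ENSMUSG00000009654, chromosome 10, 59422958 to 59441778), a zona pellucida domain protein, was at 3.26, 1.60 and 3.66 FPKM in wild type and at 5.60, 1.21 and 1.4995 FPKM in knockout. The group means of 2.84 ± 1.09 and 2.77 ± 2.46 FPKM (SD, n = 3 each) differed by less than their spread. Its difference was -0.17 (SE 0.45, 95% interval -1.24 to 0.90, limma adjusted p = 0.919), 0.13 without Arid1a_KO_DDC replicate 2 and 0.04 without Arid1a_KO_DDC replicate 3.

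**Figure D2:**
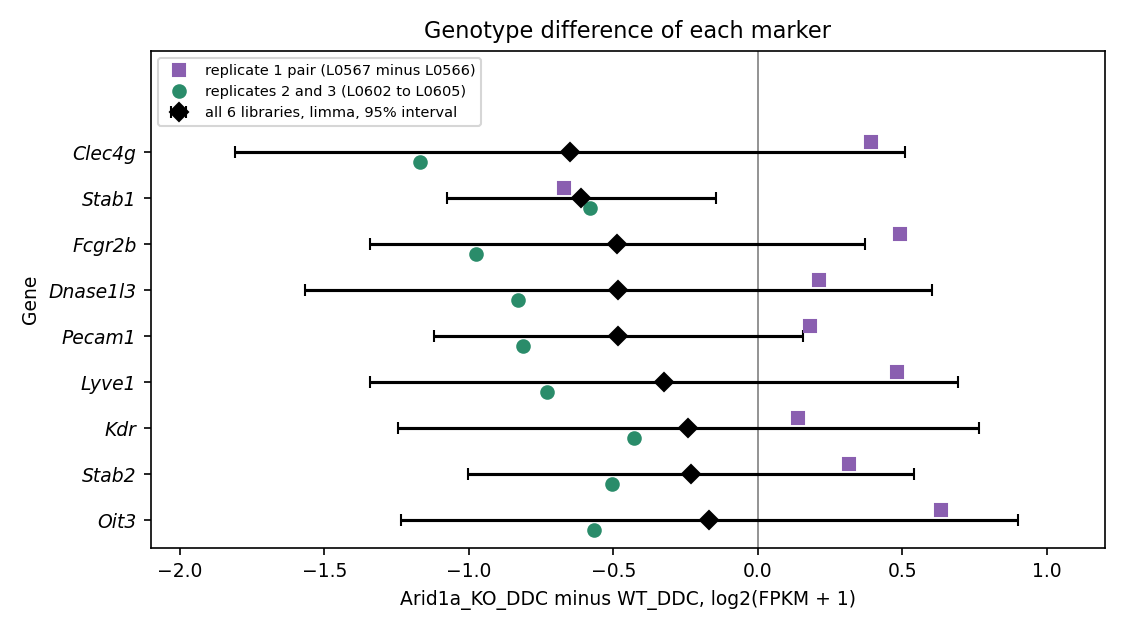
Knockout minus wild type difference of each marker on the log2(FPKM + 1) scale; diamonds with bars are the limma estimate over 6 libraries and its 95% interval, squares the replicate 1 pair alone, and circles replicates 2 and 3. Stab1 lies between -0.67 and -0.58 in all 3, whereas for the other 8 genes the squares lie above 0 and the circles below.

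The genotype difference had unlike signs in the replicate 1 pair and in the later libraries for 8 of the 9 markers. In replicate 1, 1 library per genotype, the knockout value was the higher for 8 of 9, where 47.9% of all genes were higher, and the median difference was 0.31. In L0602 to L0605, both knockout libraries lay below both wild-type libraries for 9 of 9, where 25.9% of all genes did, and the median was -0.73. Both later knockout libraries also lay below both wild-type ones for 7 of 8 stellate cell genes and 10 of 13 macrophage genes. The same held for 5 of 6 genes of other vessels and 5 of 13 all-vessel genes. Lower values in the later knockout libraries were thus not limited to the markers. In replicate 1 the knockout value was the higher for 3 of 8, 0 of 13, 0 of 6 and 8 of 13 of these genes, in the same order. A higher knockout value in replicate 1 together with a lower one without overlap in L0602 to L0605 held for 8 of 9 markers and for 9.05% of all genes. Knockout replicates 2 and 3 were the lowest pair of the 6 libraries for 9 of 9 and for 13.7% of all genes. The 9 genes varied together over the libraries, so these counts are not 9 separate observations.

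In L0602 to L0605 the knockout mean was 0.388 of the wild-type mean for Lyve1, 0.398 for Clec4g, 0.467 for Fcgr2b and 0.692 for Stab2. Pecam1 had the smallest limma p there (log2 difference -0.81, SE 0.20, adjusted p = 0.156), and 0 of 9 passed in these 4 libraries. At an unadjusted limma p under 0.05 there were 4 of 9, where 2142 of all 11839 genes were, in either direction. Within the knockout group, replicate 1 had 5.01 times the mean of replicates 2 and 3 for Kdr and 4.26 times for Lyve1, against 1.22 times for Stab1. A limma interaction of genotype with library number, the later libraries minus replicate 1, was -1.56 for Clec4g (SE 0.72, adjusted p = 0.585) and 0.09 for Stab1 (SE 0.34, adjusted p = 0.956). By limma 0 of 9 interactions passed, where 0% of all genes did. At an unadjusted limma p under 0.05, 2 of 9 interactions were negative, those of Pecam1 and Fcgr2b, where 4.48% of all genes were; the values of both genes were known when the markers were chosen, so this count is a description. Replicate 1 holds 1 library per genotype, so the spread in this fit comes from the 4 later libraries alone. Library number, the absence of Y-linked transcripts and replicate number 1 coincide and cannot be told apart.

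Stab1 had a higher correlation with the macrophage genes than with the endothelial ones, and the other 8 markers the reverse. Over the 6 libraries, which share their group structure and their cell content, pairwise Pearson r among the other 8 markers was 0.653 to 0.976 in 28 pairs, with a median of 0.869. The 8 pairs with Stab1 had r of 0.485 to 0.764, with a median of 0.634. Each gene list was summarised as the mean z-score of its genes, with log2(FPKM + 1) centred and scaled by the SD of each gene. With the mean z-score of 13 Kupffer cell and macrophage genes, r was 0.977 for Stab1 and 0.417 to 0.747 for the other 8. With that of 13 tested endothelial genes of all vessels, r was 0.655 for Stab1 and 0.843 to 0.971 for the other 8. Dnase1l3 and Clec4g were the highest there. These are descriptions of 6 points.

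**Figure D3:**
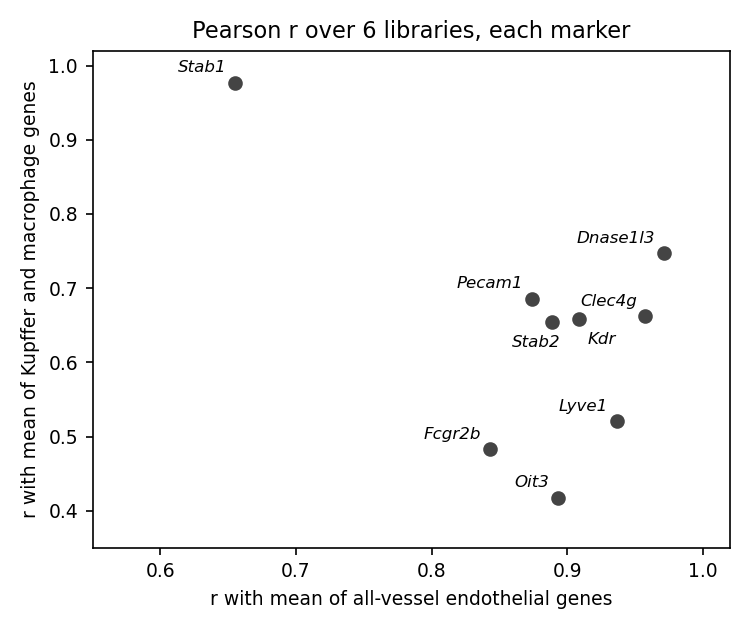
Pearson r over 6 libraries of each marker with the mean z-score of the all-vessel endothelial genes (x axis) and of the Kupffer cell and macrophage genes (y axis). Each point is 1 marker. Stab1 stands alone at 0.655 and 0.977, and the other 8 lie at 0.843 or more on x and 0.747 or less on y.

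Most macrophage genes had lower values in the knockout library of replicate 1 and in the later knockout libraries, and none passed the test. Of the 13 tested, 0 passed over all genes by limma, 12 differences were below 0, the median was -0.61, and 0 of 13 were higher in the knockout in replicate 1. In L0602 to L0605, 10 of 13 were lower without overlap, against 25.9% of all genes. Cd5l, a macrophage-secreted scavenger receptor family protein, went the other way there, at 119.3 and 80.4 FPKM in knockout replicates 2 and 3 against 68.3 and 75.9 FPKM in wild type. Their summed level was 1110 to 1500 FPKM in wild type and 680 to 1029 FPKM in knockout, without overlap, and none was listed at 0 in any library. Csf1r, the receptor for the macrophage growth factor, had a log2 difference of -0.77 (limma adjusted p = 0.202), Lyz2, lysozyme, -0.86 (0.250), and the complement genes C1qa and C1qb -0.61 and -0.60 (0.314 each). The part of macrophage RNA in the level of Stab1 was not tested.

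Other sinusoidal genes followed the markers in part. Of 17 listed, 15 were in the table and 11 were tested, with 0 past the threshold by limma, 10 negative differences and a median of -0.33. Flt4, the receptor for VEGF-C, was at 3.73, 2.82 and 3.04 FPKM in wild type and at 2.72, 1.05 and 0.946 FPKM in knockout, and did not overlap (log2 difference -0.76, SE 0.27, limma adjusted p = 0.363). Mrc1, the mannose receptor, also of macrophages, and Ehd3, an endocytic protein, did not overlap either (-0.41 and -0.38, adjusted p = 0.439 and 0.467). These 3 of 11 compare with 9.56% of all genes. Bmp6, which these cells send to hepatocytes to induce hepcidin, was at 1.66, 1.93 and 1.35 FPKM in wild type and at 1.64, 0.212 and 0.649 FPKM in knockout (-0.60, adjusted p = 0.506). In replicate 1 the knockout value was the higher for 5 of the 11. In L0602 to L0605, 6 of the 11 were lower without overlap, against 25.9% of all genes.

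Endothelial genes of all vessels had a median difference nearer 0 than the markers, and the gap between the lists was not tested. Of 16 listed and found, 13 were tested, 0 passed by limma, 9 differences were below 0, and the median was -0.20. The differences were -0.51 for Ecscr and -0.33 for Eng (adjusted p = 0.559 and 0.653), and for Cdh5, VE-cadherin, and Ramp2, a receptor subunit for adrenomedullin, -0.49 and -0.20 (0.721 and 0.753). Egfl7, the most abundant of the list, Esam, Icam2 and Sox18 went the other way, at 0.15, 0.22, 0.14 and 0.03 (limma adjusted p = 0.873, 0.847, 0.878 and 0.985). In replicate 1, 8 of these 13 were higher in the knockout, with a median of 0.19, and in the later libraries the median was -0.40. The mean log2(FPKM + 1) level of the 9 markers exceeded that of the 13 all-vessel genes by 0.60, 0.54 and 0.70 in wild-type replicates 1, 2 and 3. The same difference was 0.63, 0.21 and 0.27 in knockout replicates 1, 2 and 3. Knockout replicates 2 and 3 had a lower marker level relative to the all-vessel level than the other 4 libraries, and the groups overlapped through knockout replicate 1. Relative to the 13 macrophage genes, as a difference of mean log2 values, the marker level was not lower there, at -2.91 and -2.95 in knockout replicates 2 and 3, within the wild-type range of -3.05 to -2.43, and it was -2.03 in knockout replicate 1.

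**Figure D4:**
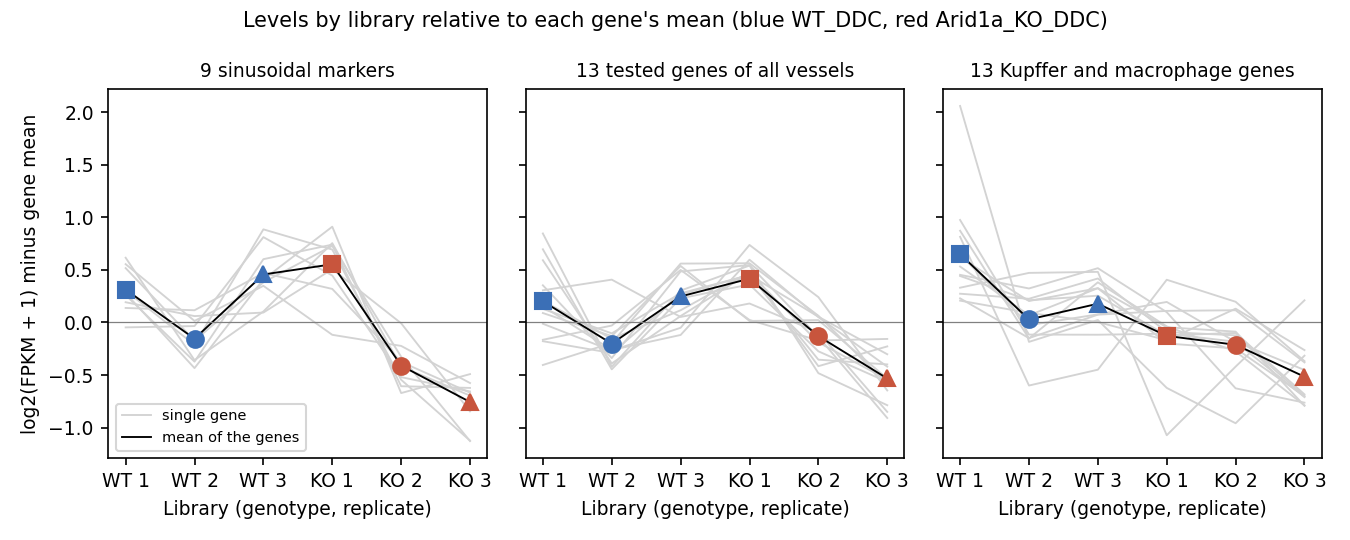
Level of each gene on the log2(FPKM + 1) scale minus its own mean over 6 libraries (grey lines join the values of 1 gene, and libraries have no order), with the mean of the list in colour (blue WT_DDC, red Arid1a_KO_DDC). The markers and the all-vessel genes share a high knockout replicate 1, and the macrophage genes have their highest mean in wild-type replicate 1.

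Genes of the VEGF and angiopoietin system, through which hepatocytes and stellate cells signal to endothelium, had no common direction. Of 14 names listed, 11 were in the table and 8 were tested, with 0 past the threshold by limma, 4 negative differences and a median of 0.02. Vegfa, the ligand of Kdr, was at 47.0, 32.2 and 57.2 FPKM in wild type and at 34.97, 59.7 and 71.5 FPKM in knockout (log2 difference 0.26, SE 0.31, limma adjusted p = 0.803). The ligand Vegfc was at 0.20 and the co-receptor Nrp2 at -0.33 (adjusted p = 0.780 and 0.743).

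In the list of capillary, arterial, venous and activated endothelium 1 of 6 tested genes fell, against 0.355% of all genes. Ly6c1, a surface protein of capillary endothelium, was at 6.25, 7.51 and 6.55 FPKM in wild type and at 1.45, 2.67 and 1.78 FPKM in knockout (log2 difference -1.41, SE 0.19, limma adjusted p = 0.0386). The call held in 8 of 17 alternatives and was lost in 9, with adjusted p-values of 0.0331 to 0.173. Among these were L0602 to L0605 alone (0.0736), the replicate block (0.0782) and leaving out Arid1a_KO_DDC replicate 1 (0.0641) or replicate 3 (0.173), or WT_DDC replicate 1 (0.0729), replicate 2 (0.152) or replicate 3 (0.154). Its paralog Ly6c2, a monocyte gene, was at 6.45, 4.51 and 5.92 FPKM in wild type and at 2.41, 6.55 and 2.43 FPKM in knockout, and the division of reads between the paralogs is uncertain. Cd34, Gja4 and Vwf, genes of vessels other than sinusoids, were at -0.32, -0.63 and -0.50 without passing (limma adjusted p = 0.491, 0.508 and 0.546). Of 12 listed, 10 were in the table and 6 were tested, with 5 negative differences and a median of -0.46, and 0 of 6 were higher in the knockout in replicate 1. Lymphatic genes, which share Lyve1, had 3 tested of 5 listed, 0 past the threshold by limma and a median of -0.12, with a summed level of 25.1 to 28.8 FPKM in wild type and 23.04 to 31.7 FPKM in knockout. Prox1 and Reln, 2 of the 3, are also made by hepatocytes and stellate cells.

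Among the other cells that share a marker, platelets had 2 tested genes, both with the order of Pecam1 in knockout but not in wild type. Itga2b, the platelet integrin, was at 3.06, 3.001 and 2.69 FPKM in wild type and at 4.73, 2.26 and 0.812 FPKM in knockout. Most of the markers share this knockout order. In wild type Itga2b was lowest in replicate 3, where Pecam1 was highest. Pf4 was at 8.58, 5.84 and 7.85 FPKM in wild type and at 7.54, 3.36 and 2.82 FPKM in knockout. In replicate 1 the knockout value of Pf4 lay below the wild-type one, whereas that of Itga2b lay above. Itga2b and Pf4 were the 2 tested of 5 listed platelet genes, and their sum was 8.84 to 11.6 FPKM in wild type and 3.63 to 12.3 FPKM in knockout. The B cell genes, relevant to Fcgr2b, had another order. Cd79a was at 0.489, 5.42 and 0.418 FPKM in knockout replicates 1, 2 and 3 and at 1.76 to 2.46 FPKM in wild type, and the 2 listed genes tested of 4 summed to 3.71 to 4.35 FPKM in wild type and 0.959 to 8.93 FPKM in knockout. Of these platelet and B cell genes 0 of 4 tested passed by limma, and the medians were -0.48 and -0.31. The part of platelet and B cell RNA in these levels was not tested.

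Stellate cell genes, the neighbours of the endothelium across the space of Disse, had a median of -0.54 over 8 tested, with 0 past the threshold by limma and 3 of 8 higher in the knockout in replicate 1. Hgf, the hepatocyte growth factor, which stellate and endothelial cells make, was at -0.75 (limma adjusted p = 0.371). The sum of the 8 was 188 to 285 FPKM in wild type and 115 to 213 FPKM in knockout. This sum is mostly Dcn, with a mean of 120 FPKM and a difference of -0.74. Cholangiocyte genes had a median of -0.61 over 5, with 0 past the threshold by limma and sums of 119.9 to 376 and 206 to 417 FPKM. These sums are mostly Spp1, with a mean of 259 FPKM and a difference of 0.28. Sox9 and Epcam were lower without overlap, 2 of 5 against 9.56% of all genes, at -1.21 and -0.67 (limma adjusted p = 0.081 and 0.307). Hepatocyte genes had a median of 0.07 over 6 tested of 7 listed, with 0 past the threshold by limma and sums of 42396 to 45282 and 45356 to 55322 FPKM, and the highest sum was that of knockout replicate 3. Of all genes listed, Cd209b alone was listed at 0 in a library, Arid1a_KO_DDC replicate 3, and it did not pass the filter on low values.

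Outside the lists, the genes most like the markers were sought among 6999 tested genes with a mean of at least 5 FPKM, by Pearson r over 6 libraries with the mean z-score of the 9. The highest were Lsm14a, Pea15a and Wiz (r = 0.991, 0.991 and 0.989), then Rgs5, a pericyte and stellate cell gene (0.987), Exoc5 (0.984), Sparc, a matrix protein gene (0.976), Col14a1, a fibril-associated collagen gene (0.970), and Ckb (0.968). Rgs5 was at 17.9, 12.3 and 17.8 FPKM in wild type and at 21.3, 8.15 and 6.87 FPKM in knockout, with the same high knockout replicate 1 as Lyve1. After the group means were subtracted, the 8 highest were Cdk9, F2r, Lsm14a, Wiz, Pea15a, Tex30, Rgs5 and Ctsb, with r of 0.984 to 0.993, so 4 genes were in both sets. F2r, the thrombin receptor, was at 11.7, 9.60 and 14.1 FPKM in wild type and at 7.82, 3.53 and 2.33 FPKM in knockout (log2 difference -1.31, limma adjusted p = 0.243). A search of many genes over 6 values returns a high r for some gene in any case.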

How the data were processed

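FPKM of 6 whole-liver libraries were deposited by the authors on a log2 scale. The tools TopHat2 2.0.6 and Cufflinks and the builds mm10 and GRCm38 are named per the submitters' processing notes. How the gene set was filtered is not stated in what was used here. An offset of 0.000977, which marks an FPKM of 0 as the lowest log2 value of -10, was removed before use. Groups came from sample titles. FPKM are not counts, so log2(FPKM + 1) values of the 11839 genes with at least 1 FPKM in at least 3 libraries went into limma 3.58.1 (R 4.3.3; two-sided, with eBayes trend). P-values were adjusted by Benjamini-Hochberg across every gene tested, with 0.05 as the threshold. Differences on this scale understate changes of low genes. Exact two-sided permutation tests used scipy 1.17.1. No set test was run, and lists are described by counts and medians.

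The members and lists were chosen with earlier results of these data known. All 9 markers and Arid1a were named whatever their values; of other lists up to 4 genes with the smallest p, and the 8 genes with the highest r to the markers, predicted names left out. Fcgr3, Ly6c2, Ddx3y, Cd5l, Spp1, the all-vessel genes with differences above 0 and the use of Cd79a, Rgs5 and F2r as examples were chosen after their values were seen. Positions were read from GENCODE M21, which uses GRCm38. In simulated data for this comparison, 57 of 100 genes changed by 1 log2 unit and 99 of 100 changed by 2 were recovered among 11628 genes tested. Of the 166 genes called there, 10 were false calls. The changed genes were drawn only from genes with a mean log2(FPKM + 1) above 3, so the recovery rates are for such genes. Stab2, Dnase1l3, Pecam1, Oit3, Lyve1 and Kdr lie below that level. The rates are not split further by gene level, and whether they hold for the markers was not tested. Alternatives were other pseudocounts, filters, scalings, moderation, a replicate block, a term for library numbers, L0602 to L0605 alone and leaving out each library. Figures were drawn with matplotlib 3.10.9.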

Additional observations from a re-analysis of the deposited data

Results flagged for a closer look

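For 8 markers the knockout value was above the wild-type value in replicate 1, 1 library per genotype, and both knockout values were below both wild-type values in L0602 to L0605. The difference between these effects, later libraries minus replicate 1 as a limma interaction on the log2(FPKM + 1) scale, was -1.56 for Clec4g, -1.47 for Fcgr2b, -1.21 for Lyve1, -1.20 for Oit3, -1.04 for Dnase1l3, -0.995 for Pecam1, -0.82 for Stab2 and -0.57 for Kdr. Adjusted p-values over all genes were 0.533 to 0.693 by limma, and none of the 8 passed. The effects of Pecam1 and Fcgr2b were already known when the 9 genes were chosen, and the 8 genes vary together.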

How the results depend on the processing

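In each alternative run, 0 of 9 markers passed by limma, with 0 to 6 of them at an unadjusted p under 0.05. The 6 were without Arid1a_KO_DDC replicate 1, where 1992 of all 11839 genes were at that level. Of 149 alternative values of single markers, 144 stayed negative and 5 turned positive: Kdr at 0.0067 without WT_DDC replicate 1 and 0.047 without Arid1a_KO_DDC replicate 3, Oit3 at 0.13 without Arid1a_KO_DDC replicate 2 and 0.04 without Arid1a_KO_DDC replicate 3, and Stab2 at 0.13 without Arid1a_KO_DDC replicate 3. The cause was not tested. All 5 positive values came from fits with 1 library left out. The filters, the moderation, the replicate block and the term for library numbers leave each difference as in the main fit. The signs in those runs were therefore fixed in advance. With 1 library left out, Kdr ranged from -0.68 to 0.047, Oit3 from -0.67 to 0.13 and Stab2 from -0.54 to 0.13, and the median over the markers from -0.76 to -0.10. That median was -0.73 in L0602 to L0605 alone and -0.25 with a pseudocount of 5. The lowest adjusted p of any marker in any alternative was 0.156, that of Pecam1 in L0602 to L0605. Over all genes tested 58 were called, 16 higher and 42 lower, against 12 with no filter, 92 with a term for library numbers and 0 to 67 with 1 library left out. The 0 was without Arid1a_KO_DDC replicate 3, with 918 genes at an unadjusted p under 0.05. With the replicate block 0 genes were called by limma, with 1718 at an unadjusted p under 0.05. The median over the markers stayed at -0.48, since a balanced block does not change the differences. Same-numbered libraries deviated together with r of 0.346, 0.133 and 0.0212 for replicates 1, 2 and 3, so the numbers were not taken as pairs. The filter at 5 FPKM left 5 markers and no value for Lyve1, Pecam1, Kdr and Oit3. The number of libraries and the unknown absolute depth limit what can be seen in Kdr and Lyve1, the markers of lowest level.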
